A study of Mus musculus with 54 samples.

Results

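The protein genes of the cytosolic ribosome were followed through 5 groups of mouse liver. They were the protein-coding rows of the RNA-seq table whose symbol is Rpl or Rps followed by a number (with an optional a, x, y or l and a further number), together with Rplp0, Rplp1, Rplp2 and Rpsa. The rule used names only and found 81 of the 13815 genes in the table, 33 of the small subunit and 48 of the large subunit. They included 3 paralog forms, Rpl7l1, Rpl22l1 and Rps27l. All mice carried floxed alleles of Flcn, the gene of folliculin. Control mice received an adeno-associated virus of serotype AAV8 that expressed GFP from the hepatocyte promoter TBG, and LiFKO mice received the same virus with Cre. DKO mice were Flcnlox/lox; Tfe3-/Y males, with Tfe3 lost in every tissue, that were given the Cre virus. The sex of the other groups is not given. The virus dose was the same in all 5 groups. RNA-seq covered Control and LiFKO liver on normal chow, and Control, LiFKO and DKO liver on AMLN diet, which is rich in fat, fructose and cholesterol, with 3 libraries in each group. Diets ran for 17 to 18.5 weeks, and mice were fasted for 4 to 6 h before the livers were taken. Among the RNA-seq groups only the DKO line lacked Tfe3, and none lacked Tfe3 with Flcn intact. The loss of Tfe3 and the line of mice therefore cannot be told apart in RNA-seq. The labels do not say whether each library is a separate mouse, so p-values measure the spread between these libraries.

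Each cytosolic ribosome holds a single copy of nearly every ribosomal protein, with the acidic stalk proteins as the known exception, and cells make the proteins in balanced amounts. In vertebrates the mRNAs of ribosomal proteins begin with a C followed by an unbroken run of pyrimidines, the terminal oligopyrimidine (TOP) motif. Through this motif the kinase complex mTORC1 controls their translation, with the RNA-binding protein LARP1 as a repressor. Folliculin acts with the Rag GTPases on a branch of mTORC1 signalling that holds TFE3, a transcription factor of lysosomal genes, in the cytoplasm. RNA-seq measures mRNA level and not translation, so the output of mTORC1 on TOP mRNAs is seen here only as far as it touches mRNA abundance.

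The starts of 7 members are shown because the TOP motif is the feature that ties this gene family to mTORC1. The sequences come from the RefSeq promoter table of GRCm38.p6, which matched 59 of the 81 members. Each runs 5′ to 3′ from 10 bases before the annotated start through the first 20 transcribed bases, and capitals mark a C followed by at least 4 bases that are each C or T, beginning within 3 bases of the annotated start. Rps18 lies at chr17:33955646-33955675 on the minus strand, Rps6 at chr4:86857348-86857377 on the minus strand, Rpl15 at chr14:18270967-18270996 on the minus strand, Rpl35a at chr16:33056472-33056501 on the plus strand and Rpl18 at chr7:45718061-45718090 on the plus strand. Rpl7l1 at chr17:46782637-46782666 on the minus strand and Rpl22 at chr4:152324426-152324455 on the plus strand have no such run at these starts. Rpl35a has further annotated starts close by, and those have no such run.
Rps18: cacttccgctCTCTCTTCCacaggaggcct
Rps6: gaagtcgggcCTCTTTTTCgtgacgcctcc
Rpl15: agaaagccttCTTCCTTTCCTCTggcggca
Rpl35a: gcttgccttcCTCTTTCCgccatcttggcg
Rpl18: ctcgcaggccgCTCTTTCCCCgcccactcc
Rpl7l1: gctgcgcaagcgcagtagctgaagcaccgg
Rpl22: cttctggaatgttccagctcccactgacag

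By this search of the transcribed strand, 25 of the 59 matched members (42.4%) had an oligopyrimidine start at any of their annotated starts. Counted in the same way, the share was 15.1% of the 9583 measured genes in the promoter table and 13.5% of all 27025 genes in it. Counted per start, it was 11.5% of all 32851 promoters. With the run beginning exactly at the annotated start the shares were 22% of members and 2.96% of measured genes. Annotated starts often lie a few bases from the start in use. With 20 bases allowed, a distance chosen after seeing the data, the shares were 81.4% and 55.5%. The search reads letters in an annotation and does not show which bases liver mRNAs begin with.

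Values were deposited on a log2 scale after quantile normalization, which gave every library the same distribution. The members can therefore shift only against the other genes, and a change in total RNA would not be visible. The normalized level of a gene is not per length, so no level is compared between genes. Flcn stood at 11.33, 11.55 and 11.44 (log2) in chow Control and at 10.55, 10.14 and 10.53 in chow LiFKO. On AMLN diet it stood at 10.98, 10.92 and 11.06 in Control, at 10.25, 10.56 and 10.43 in LiFKO and at 9.12, 9.45 and 9.91 in DKO. Each Cre group lay below the Control group of its diet. Tfe3 stood at 10.20, 9.88 and 9.89 in the libraries labelled DKO, against 9.92, 10.02 and 10.07 in AMLN LiFKO and 10.20, 10.30 and 10.23 in AMLN Control. The DKO libraries overlapped those of LiFKO, and LiFKO lay below Control without overlap, so the Tfe3 mRNA did not set the DKO libraries apart. Which part of Tfe3 the mice lack is not given in the sources used here.

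Across libraries the ribosomal protein genes moved as a block. For each library the deviation of every member from its own mean over the 15 libraries was taken, and the median over the 81 members summarised it. This median was 0.26, 0.18 and 0.09 (log2) in chow Control and -0.06, -0.05 and -0.20 in chow LiFKO, so the groups on chow did not overlap. It was -0.23, -0.10 and -0.09 in AMLN LiFKO and 0.12, 0.05 and 0.02 in the libraries labelled DKO, which again did not overlap. AMLN Control spanned both, at -0.21, 0.02 and 0.22. In AMLN Control replicate 3 all 81 members were above their own mean, in replicate 2 45 were, and in replicate 1 only 8 were. Results that rest on AMLN Control are therefore given below with and without these libraries.

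**Figure D1:**
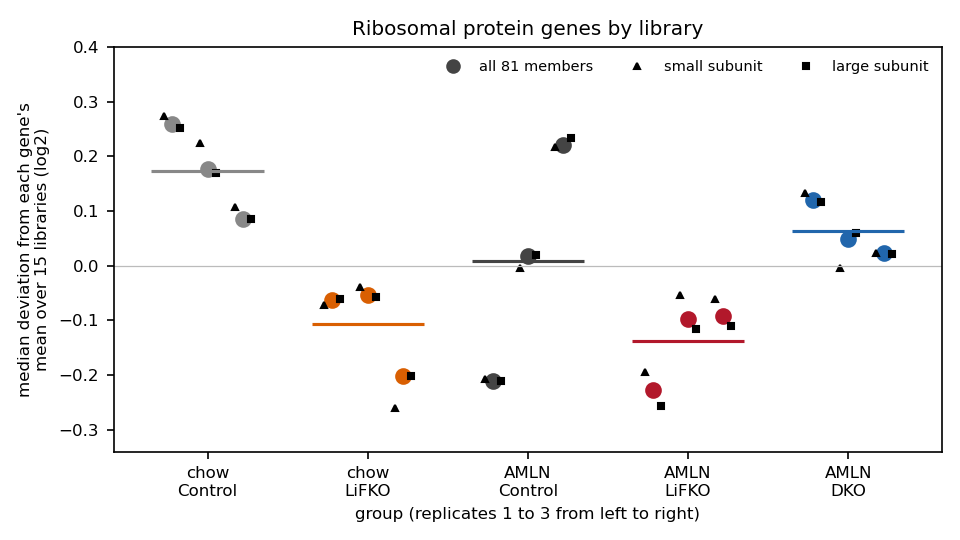
Median deviation of the 81 ribosomal protein genes from each gene's mean over 15 libraries (log2, y axis) in every library of the 5 groups (x axis). Coloured points are all members, triangles the small subunit, squares the large subunit, and lines the group means. Chow Control lies above chow LiFKO, DKO lies above AMLN LiFKO, and the 3 AMLN Control libraries run from -0.21 to 0.22.

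On chow, ribosomal protein mRNAs were lower in LiFKO than in Control liver. 26 of the 81 members were called lower and 0 higher, at a Benjamini-Hochberg adjusted p under 0.05 in limma over all 13815 genes. That is 32.1% of the members, where 13.2% of all genes were called lower and 12.5% higher. At an unadjusted p under 0.05, 43 members (53.1%) were lower and 0 higher, against 20% and 16.7% of all genes. The median log2 fold change was -0.30 over the members and -0.05 over all genes, 76 of the 81 members had a negative value, and in 48 members (59.3%) every LiFKO library lay below every Control library, against 23.3% of all genes. In the small subunit 12 of 33 were called lower with a median of -0.29, and in the large subunit 14 of 48 with a median of -0.30.

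The count of calls on chow moved with the processing and with single libraries, while the median did not change sign. With libraries recentred on all genes or on genes of like level, 16 members were called, and the medians were -0.26 in either case. Without chow Control replicate 1, 10 were called, without chow Control replicate 2 8, without chow LiFKO replicate 2 17 and without chow LiFKO replicate 3 8. Over the 6 fits that leave out a chow library, the median ran from -0.33 to -0.24. The counts over all genes in these fits are not given here, so moved counts cannot be read as particular to the members.

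In the small subunit, Rps18, a protein of its head (mm9 chr17:34088944-34092946), had the largest fall. It stood at 13.17, 13.06 and 12.87 in chow Control and at 11.81, 12.45 and 12.20 in chow LiFKO. All LiFKO libraries were below all Control libraries, and the log2 fold change was -0.88 (SE 0.16, limma adjusted p = 0.000809), a normalized level 1.84-fold lower. Rps3a, a protein of the subunit's platform, stood at 13.51, 13.45 and 12.89 in Control and at 12.75, 12.74 and 12.48 in LiFKO. Control replicate 3 lay close to the LiFKO libraries, and the log2 fold change was -0.62 (SE 0.14, limma adjusted p = 0.00491). The other 10 called had log2 fold changes of -0.29 (Rps25) to -0.62 (Rps12).

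Rps6, the substrate by which S6 kinase activity downstream of mTORC1 is usually read, was not called. It stood at 13.27, 13.11 and 12.95 in chow Control and at 12.88, 12.80 and 12.47 in chow LiFKO. The groups did not overlap, with a log2 fold change of -0.39 (SE 0.15, limma adjusted p = 0.0691). Rpsa, which is also known as the laminin receptor precursor, had -0.29 (SE 0.12, limma adjusted p = 0.0933). Rps27a, whose protein is made as a fusion with ubiquitin, had -0.42 (SE 0.19, limma adjusted p = 0.114), and its groups overlapped.

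In the large subunit, Rpl22 (mm9 chr4:151699851-151708180), which binds RNA outside the ribosome as well, had the smallest p of all members. It stood at 12.89, 12.84 and 12.71 in chow Control and at 12.31, 12.28 and 12.20 in chow LiFKO. The gap between the groups was wider than the spread within either, with a log2 fold change of -0.55 (SE 0.08, limma adjusted p = 0.000222). Rpl35a (mm9 chr16:33056539-33060275), a protein mutated in Diamond-Blackfan anaemia, stood at 11.45, 11.27 and 11.35 in Control and at 10.85, 10.78 and 10.80 in LiFKO, again without overlap, with a log2 fold change of -0.55 (SE 0.11, limma adjusted p = 0.00188). Rpl17, which lines the exit tunnel of the nascent peptide, had -0.58 (SE 0.11, limma adjusted p = 0.00185). Rpl15, another Diamond-Blackfan anaemia gene, stood at 11.89, 11.87 and 11.82 in Control and at 11.53, 11.38 and 11.56 in LiFKO, with -0.37 (SE 0.07, limma adjusted p = 0.00203).

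The remaining 10 called large subunit genes were Rpl4, Rpl7, Rpl7l1, Rpl8, Rpl11, Rpl14, Rpl18, Rpl26, Rpl32 and Rpl37a, with log2 fold changes of -0.25 (Rpl4) to -0.45 (Rpl18). Rpl11 is the partner of Rpl5 in the 5S particle that inhibits Mdm2. The calls of Rpl15, Rpl17, Rpl22, Rpl35a, Rps3a and Rps18 held in all 12 alternatives run for this comparison.

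The stalk proteins, which recruit elongation factors to the ribosome, were not called. Rplp1 and Rplp2 had log2 fold changes of -0.14 (SE 0.10) and -0.11 (SE 0.14). Rplp0, the stalk base and a frequent reference gene in quantitative PCR, stood at 13.67, 12.77 and 13.37 in chow Control and at 13.80, 13.20 and 13.11 in chow LiFKO, so the groups overlapped, with 0.10 (SE 0.28). The 3 paralog forms did not share a pattern. Rpl7l1, the paralog of Rpl7, fell by 0.34 on the log2 scale (SE 0.09, limma adjusted p = 0.0122), Rps27l had -0.29 (SE 0.15, limma adjusted p = 0.185), and Rpl22l1 had 0.10 (SE 0.18, limma adjusted p = 0.743). The 5 members with a value above 0 ran from 0.08 (Rpl38) to 0.13 (Rps4y2), and 0 of them were called.

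**Figure D2:**
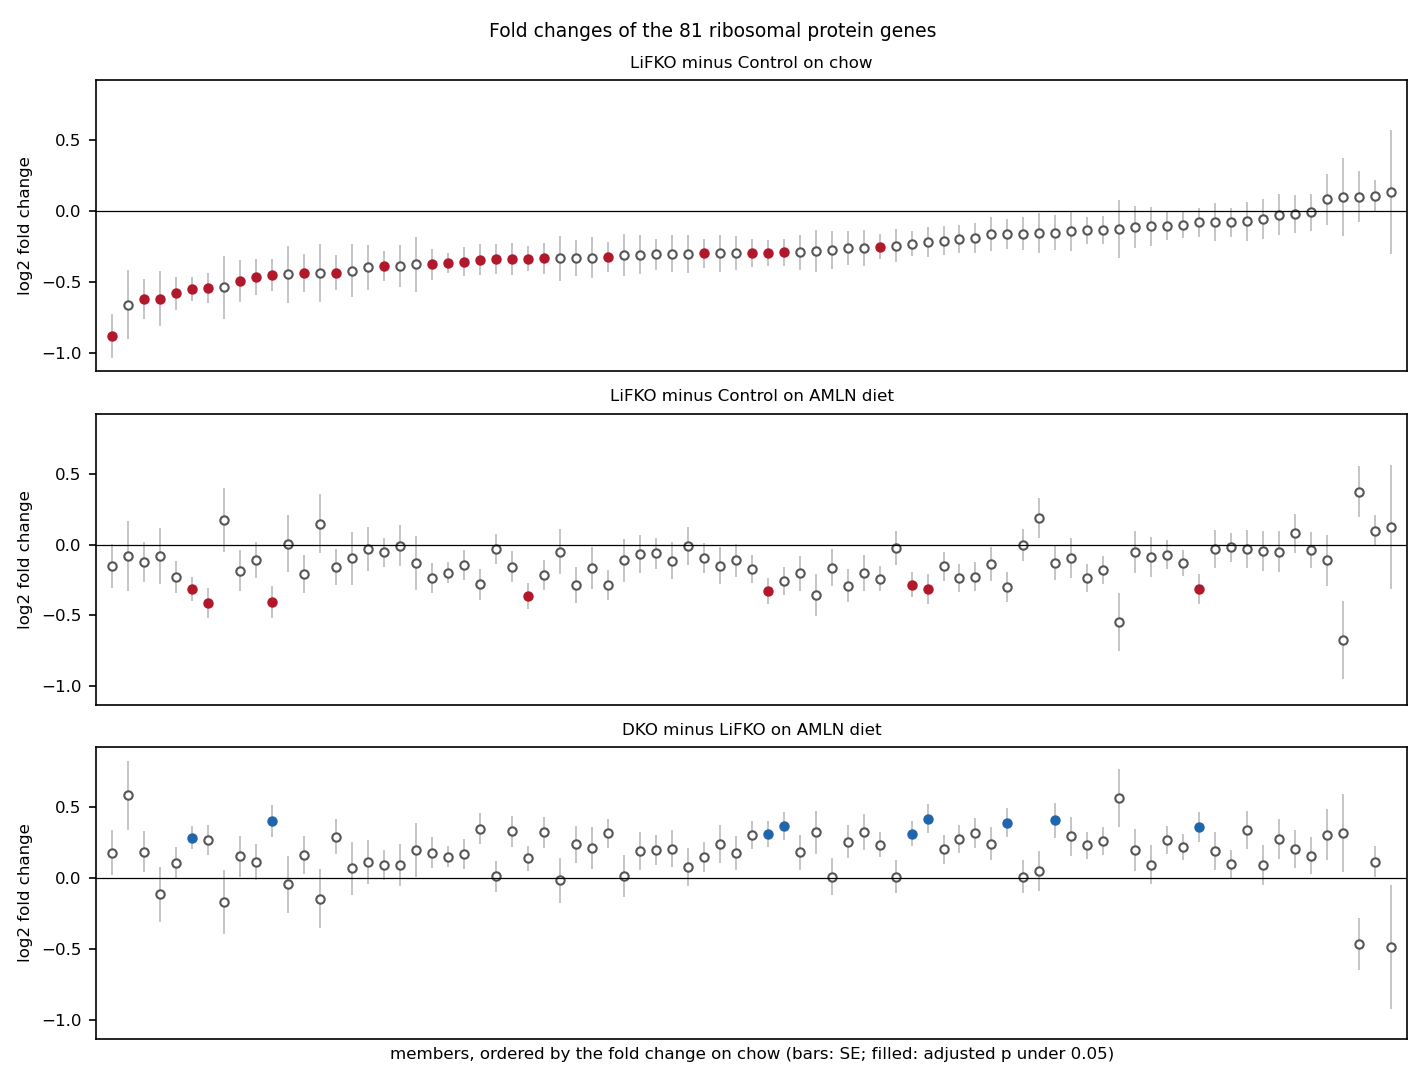
Log2 fold changes of the 81 members (y axis, bars SE) for LiFKO minus Control on chow, LiFKO minus Control on AMLN diet and DKO minus LiFKO on AMLN diet, with members on the x axis, unnamed, in the order of the first panel and filled points for an adjusted p under 0.05. On chow 26 points are filled and 76 lie below 0, on AMLN diet 8 are filled, and in the bottom panel 9 are filled and 74 lie above 0.

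Sums of cell type markers were also compared on chow, and they did not all go the way of the members. The summed level of 11 of 12 listed hepatocyte markers (log2 of the sum) was 22.43 to 22.51 in chow Control and 21.73 to 22.13 in chow LiFKO. Among these markers Alb was lower by 1.00 in log2 (limma adjusted p = 0.017) and Serpina1a by 0.59 (limma adjusted p = 0.0446), while Apob and Ass1 were higher. The sum over 6 of 7 erythroid markers was 15.63 to 16.80 in chow Control and 14.90 to 15.65 in chow LiFKO, with Alas2, Hbb-b1 and Hbb-b2 called lower, and the sum over 8 of 8 endothelial markers was 13.67 to 14.03 and 14.04 to 14.25. Of these 8, Stab2 and Lyve1 were called higher and the other 6 had values below 0, with a median of -0.05. In bulk liver, fewer cells of a type and less RNA per cell cannot be told apart. The part of these shifts in the members' fall was not tested.

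On AMLN diet the direction was the same, with smaller values. LiFKO minus Control called 8 members lower and 0 higher in limma. That is 9.88% of the members, against 9.63% of all genes called lower, so the share of calls was that of the background. At an unadjusted p under 0.05, 23 members (28.4%) were lower and 0 higher, against 16.4% and 15.6% of all genes. The median log2 fold change was -0.13 over the members and -0.02 over all genes, 73 of 81 were negative, and 13 members (16%) did not overlap downward, against 18.3% of all genes. The 8 were Rpl7a, Rpl7l1, Rpl18, Rpl21, Rpl22, Rpl27, Rpl35a and Rps25, of which 7 belong to the large subunit.

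Rpl7l1 (mm9 chr17:46910856-46919605) had the smallest p among them. It stood at 11.84, 11.81 and 11.78 in AMLN Control and at 11.48, 11.37 and 11.49 in AMLN LiFKO. All LiFKO libraries were below all Control libraries, and the log2 fold change was -0.36 (SE 0.09, limma adjusted p = 0.00998), which was called in all 12 alternatives run. Rpl22 stood at 12.57, 12.70 and 12.87 in AMLN Control and at 12.36, 12.44 and 12.41 in AMLN LiFKO, without overlap, with -0.31 (SE 0.08, limma adjusted p = 0.015). Rpl35a had -0.41 (SE 0.11, limma adjusted p = 0.0145) and Rpl18 -0.41 (SE 0.11, limma adjusted p = 0.0201). Rps25, a small subunit protein needed for initiation at some viral internal entry sites, had -0.33 (SE 0.09, limma adjusted p = 0.0215), and Rpl21 had -0.28 (SE 0.09, limma adjusted p = 0.0368). Of 12 alternatives, the calls of Rpl22 and Rpl35a held in 9, that of Rpl18 in 8, Rps25 in 7 and Rpl21 in 6.

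Outside this set, Rplp0 had the lowest log2 fold change on AMLN diet, -0.67 (SE 0.28, limma adjusted p = 0.103). It stood at 13.90, 13.33 and 13.99 in Control and at 13.42, 13.32 and 12.46 in LiFKO, so LiFKO replicate 3 stood far below the rest. Rpl22l1, a paralog that Rpl22 is known to repress, had the highest, 0.37 (SE 0.18, limma adjusted p = 0.175), at 9.89, 10.05 and 10.58 in Control and 10.50, 10.69 and 10.44 in LiFKO. Rps18, the leading small subunit gene on chow, had -0.15 (SE 0.16, limma adjusted p = 0.551) on AMLN diet, and Rps6 had -0.01 (SE 0.15, limma adjusted p = 0.983).

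The AMLN count depended on which Control library was kept. Without AMLN Control replicate 1, 16 members were called lower with a median of -0.26. Without AMLN Control replicate 3, 1 was called lower and 1 higher, with a median of -0.01. Leaving out AMLN Control replicate 2, AMLN LiFKO replicate 1 or AMLN LiFKO replicate 2 gave 3, 1 and 5. The counts over all genes in these fits are not given here. The hepatocyte marker sum was 22.38 to 22.43 in AMLN Control and 21.96 to 22.03 in AMLN LiFKO, where the endothelial sum was 13.72 to 13.89 and 14.31 to 14.41. Of the 11 hepatocyte markers 6 had values above 0, with a median of 0.05, and Ass1 was called higher and 0 lower in limma. The abundant Alb had -0.82 (SE 0.28, limma adjusted p = 0.0545). Their part in the result was not tested.

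**Figure D3:**
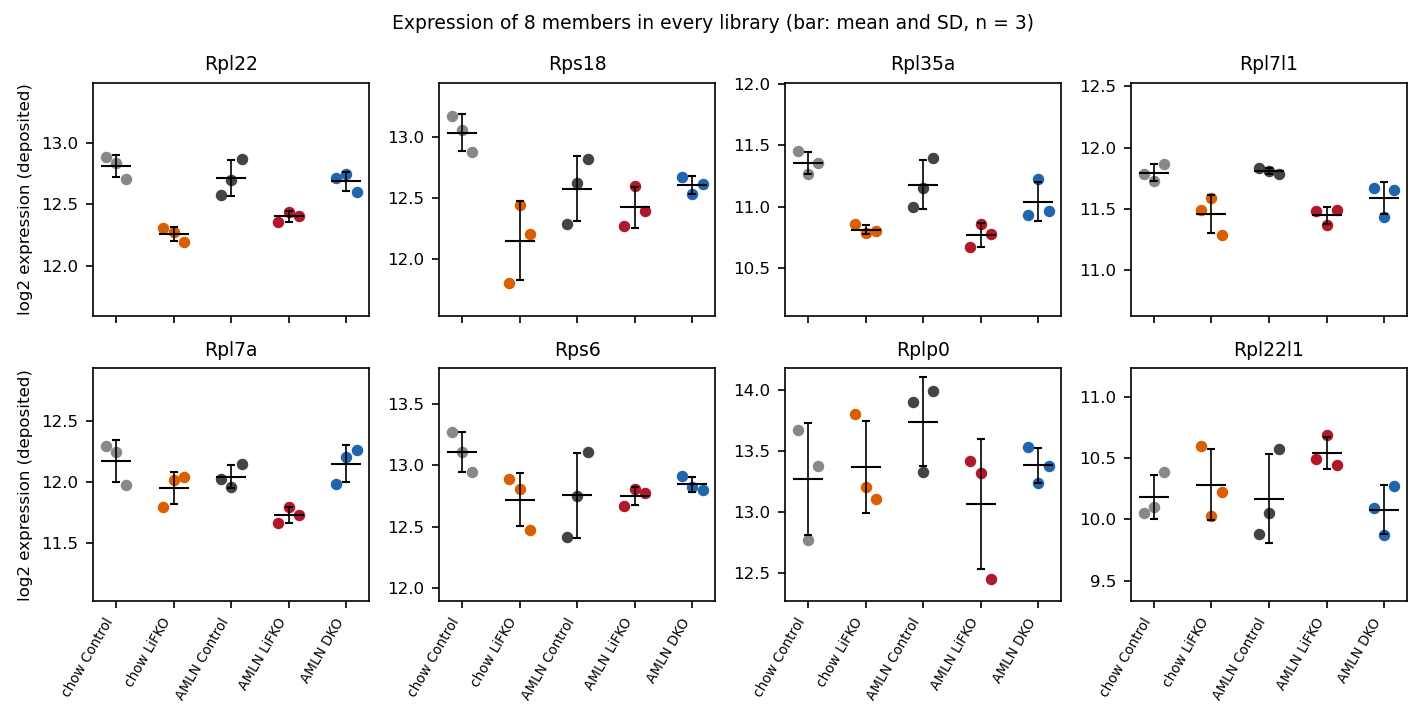
Deposited log2 expression (y axis, the same span in every panel) of Rpl22, Rps18, Rpl35a, Rpl7l1, Rpl7a, Rps6, Rplp0 and Rpl22l1 in each of 15 libraries, by group (x axis). Points are libraries and bars the mean and SD of 3. In Rpl22 and Rpl35a each LiFKO group lies below the Control group of its diet, while Rplp0 scatters from 12.46 to 13.99.

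The diets were then compared through the members called in each. Rpl7l1, Rpl18, Rpl22, Rpl35a and Rps25 were called lower in LiFKO on both diets, which is 62.5% of the 8 on AMLN diet and 19.2% of the 26 on chow. Over all genes, 721 were called lower on both diets, which is 54.2% of the 1330 on AMLN diet and 39.6% of the 1822 on chow. These comparisons share no library, although all libraries enter 1 estimate of the spread. An interaction term tested for each gene whether LiFKO minus Control differed between diets, and it called 0 members in limma, against 0.282% of all genes called higher and 0.76% lower on AMLN diet. At an unadjusted p under 0.05 there were 5 members (6.17%), all with a positive difference, against 7.76% of all genes higher and 7.95% lower. Rps18 had the largest such difference, 0.73 (SE 0.22, limma adjusted p = 0.125), and Rplp0 had the most negative, -0.77 (SE 0.39, limma adjusted p = 0.357). Over the members, the median difference was 0.11, and 0.01 to 0.23 as AMLN Control replicate 1 or 3 was left out. A difference between diets in single ribosomal protein genes was not detected.

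In Control liver, AMLN diet against chow called 2 members lower and 0 higher in limma, 2.47% of the members, where 11.6% of all genes were called lower and 11.2% higher. At an unadjusted p under 0.05, 15 members (18.5%) were lower and 0 higher, against 19.3% and 17.8% of all genes, so the count of lower members was that of the background. The median log2 fold change was -0.17 over the members and -0.04 over all genes, and 5 members (6.17%) did not overlap downward, against 21.8% of all genes. The 2 were Rps18, at 12.29, 12.63 and 12.82 on AMLN diet against 13.17, 13.06 and 12.87 on chow, with -0.46 (SE 0.16, limma adjusted p = 0.0477), and Rpl24, with -0.32 (SE 0.11, limma adjusted p = 0.0446). The call of Rps18 held in 4 of 12 alternatives and that of Rpl24 in 2 of 12. The row named Rpl24 carries the Ensembl ID of Zbtb11 and its interval, mm9 chr16:55966388-56009026, covers that neighbouring gene, so it cannot be read as Rpl24 alone. The count moved with single libraries here too. Without AMLN Control replicate 3, 21 members were called lower with a median of -0.29. No member was called lower without AMLN Control replicate 1 or 2 or chow Control replicate 1 or 2. The counts over all genes in these fits are not given here. Of the 11 hepatocyte markers, 4 were called lower here (Ass1, Cps1, Hnf4a and Serpina1a) and 1 higher, with a median of -0.43. Of 9 stellate cell and fibroblast markers 5 were called higher and 3 were below 0. Their part in the result was not tested.

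In LiFKO liver the diet made little difference to the members. AMLN against chow called 0 members in limma, where 1.58% of all genes were called higher and 2.16% lower. At an unadjusted p under 0.05, 1 member was higher (1.23%) and 5 lower (6.17%), against 10.4% and 10.6% of all genes, and the median log2 fold change was -0.04. In this comparison 50 members were negative and 31 positive. Every AMLN library lay above every chow library in 4 members (4.94%, against 12.2% of all genes) and below in 8 (9.88%, against 12.7%). Rpl22, at 12.36, 12.44 and 12.41 on AMLN diet against 12.31, 12.28 and 12.20 on chow, had 0.14 (SE 0.08, limma adjusted p = 0.36).

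The libraries labelled DKO had higher ribosomal protein mRNA than AMLN LiFKO. DKO minus LiFKO called 9 members higher and 0 lower in limma, 11.1% of the members, against 5.05% of all genes called higher and 5.97% lower. At an unadjusted p under 0.05, 30 members (37%) were higher and 1, Rpl22l1, lower (1.23%), against 13.1% and 12% of all genes. The median log2 fold change was 0.20 over the members and 0.02 over all genes. In this comparison 74 of 81 members were positive, and in 41 (50.6%) every DKO library lay above every LiFKO library, against 15.3% of all genes. The 9 were Rpl7a, Rpl11, Rpl18, Rpl21, Rpl22, Rpl27, Rpl28, Rpl31 and Rps25, of which 8 belong to the large subunit.

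Rpl7a (mm9 chr2:26766284-26768838), a large subunit protein, led with the smallest p. It stood at 11.66, 11.80 and 11.73 in AMLN LiFKO and at 11.99, 12.21 and 12.26 in DKO, while AMLN Control stood at 12.03, 11.96 and 12.15. The DKO and Control libraries overlapped, and LiFKO lay below both, with a log2 fold change of 0.42 for DKO minus LiFKO (SE 0.10, limma adjusted p = 0.017). Rpl31, at the rim of the exit tunnel, stood at 11.03, 11.22 and 11.32 in LiFKO and at 11.72, 11.58 and 11.45 in DKO, with 0.39 (SE 0.10, limma adjusted p = 0.0251). Rpl11 had 0.37 (SE 0.10, limma adjusted p = 0.0255) and Rpl18 0.40 (SE 0.11, limma adjusted p = 0.0348). Rpl21 had 0.32 (SE 0.09, limma adjusted p = 0.0349). Rpl22 stood at 12.72, 12.75 and 12.60 in DKO, above the 12.36 to 12.44 of LiFKO, with 0.29 (SE 0.08, limma adjusted p = 0.038). Of 12 alternatives, the call of Rpl7a held in 9, those of Rpl11 and Rpl31 in 7, those of Rpl18 and Rpl21 in 6. That of Rpl22 held in 2.

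Members called lower in AMLN LiFKO had these values for DKO minus LiFKO, a comparison that uses the same LiFKO libraries and so is not independent of the first. Rpl35a had 0.27 (SE 0.11, limma adjusted p = 0.13), with DKO at 10.93, 11.22 and 10.96. Rpl7l1 had 0.14 (SE 0.09, limma adjusted p = 0.361), and its DKO libraries, at 11.67, 11.44 and 11.65, stayed below all AMLN Control libraries. Rpl22l1 was among the 7 members below 0, with -0.46 (SE 0.18, limma adjusted p = 0.123) and all DKO libraries, at 10.10, 9.87 and 10.27, below all LiFKO libraries. Rpl34 had the highest value of the 81, 0.59 (SE 0.24, limma adjusted p = 0.15).

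The calls for DKO minus LiFKO were few and moved with single libraries. Leaving out AMLN LiFKO replicate 1 gave 0, DKO replicate 2 gave 1, DKO replicate 1 or 3 gave 3, and AMLN LiFKO replicate 2 or 3 gave 5. The median stayed between 0.16 and 0.24 in these fits, for which the counts over all genes are not given here. DKO minus Control on AMLN diet called 0 members in limma, against 0.449% of all genes called higher and 0.203% lower, and at an unadjusted p under 0.05 2 members were higher (2.47%) and 1 lower (1.23%), against 7.27% and 6.23% of all genes. Every DKO library lay above every Control library in 1 member (1.23%, against 8.66% of all genes) and below in 1, Rpl7l1 (1.23%, against 8.09%). The median log2 fold change was 0.05, and -0.06 to 0.16 without AMLN Control replicate 1 or 3. The hepatocyte marker sum was 22.39 to 22.41 in DKO, above the 21.96 to 22.03 of AMLN LiFKO, with 0 of the 11 markers called in limma, 1 (Alb) higher and 1 lower at an unadjusted p under 0.05, and 7 above 0. Its part in the result was not tested.

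In 60 of 81 members the highest group mean was that of chow Control, and in 13 that of DKO. The lowest was AMLN LiFKO in 47 members and chow LiFKO in 28. Taken as a pair, chow Control was highest and AMLN LiFKO lowest in 34 members, and chow Control highest and chow LiFKO lowest in 24. The range of the 5 group means had a median of 0.38 (log2). The widest ranges were those of Rps18 (0.88), Rplp0 (0.67), Rpl34 (0.66), Rps3a (0.62) and Rps12 (0.62), and the narrowest those of Rps29 (0.16), Rpl19 (0.16), Rplp2 (0.17), Rpl3 (0.18) and Rpl23 (0.18). The median deviation of the members averaged -0.14 ± 0.08 in AMLN LiFKO and -0.11 ± 0.08 in chow LiFKO (SD, n = 3), which differed by less than the spread between libraries. It averaged 0.06 ± 0.05 in DKO, 0.01 ± 0.22 in AMLN Control and 0.17 ± 0.09 in chow Control (SD, n = 3), and AMLN Control differed from neither neighbour by more than its own SD.

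Within groups the members also varied together. Over the 15 libraries, with each group's mean removed, the median correlation between pairs of members was 0.59, against 0.00 (0.003) between pairs of 3019 other genes of like level. These points share libraries and normalization, and no test was made. The groups did not enter evenly, since the SD of the members' median deviation was 0.22 in AMLN Control and 0.05 to 0.09 in the other groups. How far the correlation rests on AMLN Control was not tested. A gene was also correlated with the median of the other members, and 32 of 81 passed 0.8, led by Rpl5 (0.96), Rps6 (0.96) and Rpl13a (0.95). Only 7 were under 0.5, namely Rpl7l1 (0.06), Rplp0 (0.08), Rps4y2 (0.22), Rpl7a (0.26), Rpl29 (0.35), Rpl22l1 (0.41) and Rpl27 (0.47). Rplp0 had a within-group SD of 0.40 and Rps4y2 of 0.63, while Rpl7l1 and Rpl7a, at 0.10 and 0.13, varied little. The Rps4y2 row is the gene that RefSeq names Rps4l and lists as a transcribed pseudogene.

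Ribosomal protein genes have many processed copies in the genome. The table held 101 pseudogene rows, named after 47 of the members, and how reads shared with a copy were counted is not given in the sources used here, so single members are uncertain to that degree. On chow, 21 of these 101 rows were called lower in LiFKO (20.8%, against 13.2% of all genes) and 0 higher. The median over the rows was -0.19. Among them Rpl35a-ps3 had -0.65 (SE 0.14, limma adjusted p = 0.0027) and Rpl17-ps3 -0.45 (SE 0.10, limma adjusted p = 0.00435), beside parent genes that were called too. On AMLN diet 4 were called lower (3.96%, against 9.63% of all genes), with a median of 0.03. For DKO minus LiFKO 3 were called higher (2.97%, against 5.05%), with a median of 0.15.

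Rpl36al, a gene of a cytosolic ribosomal protein that the naming rule misses, was measured as well. Rpl36al fell in LiFKO on both diets, by 0.36 (SE 0.11, limma adjusted p = 0.0238) on chow and by 0.49 (SE 0.11, limma adjusted p = 0.00565) on AMLN diet, in log2.

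Other TOP mRNAs, chiefly translation factors, moved less evenly. Of 31 measured, 8 were called lower (25.8%) and 1 higher (3.23%) in LiFKO on chow, with a median of -0.14. Over all genes 13.2% were called lower and 12.5% higher. On AMLN diet 4 were called lower (12.9%) and 2 higher (6.45%), with a median of -0.06. Over all genes these shares were 9.63% and 10.1%. Gas5, a noncoding TOP transcript that hosts small nucleolar RNAs, stood at 11.76, 11.78 and 11.70 in chow Control and at 10.91, 11.11 and 10.74 in chow LiFKO, with -0.83 (SE 0.11, limma adjusted p = 0.00011). Eif4a2, an RNA helicase of initiation, fell by 0.53 (SE 0.08, limma adjusted p = 0.000356) on chow and by 0.49 (SE 0.08, limma adjusted p = 0.000895) on AMLN diet, and was higher in DKO than in LiFKO by 0.46 (SE 0.08, limma adjusted p = 0.0029). Pabpc4, a poly(A)-binding protein, went the other way, with 0.68 (SE 0.12, limma adjusted p = 0.000894) on chow and 0.49 (SE 0.12, limma adjusted p = 0.0105) on AMLN diet.

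Ribosome assembly genes were measured beside the members. Of 63 measured, 4 were called lower (6.35%) and 2 higher (3.17%) in LiFKO on chow, with a median of -0.09. Both shares lay below those of all genes, 13.2% lower and 12.5% higher. The leading gene was Utp3, of the small subunit processome, with -0.55 (SE 0.08, limma adjusted p = 0.000272), followed by Ubtf, the factor that opens ribosomal DNA to polymerase I, with -0.45 (SE 0.10, limma adjusted p = 0.00454). Nhp2, of the box H/ACA particles, was higher, with 0.45 (SE 0.11, limma adjusted p = 0.00971). AMLN against chow in Control liver called 9 of the 63 lower (14.3%, against 11.6% of all genes) and 1 higher (1.59%, against 11.2%). This comparison had 51 below 0 and a median of -0.15, where the members had -0.17. Its leading gene was the nucleolar GTPase Gnl3, with -0.63 (SE 0.13, limma adjusted p = 0.00464).

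Mitochondrial ribosomal proteins, which form the separate ribosome of mitochondria, had medians of the opposite sign. Of 75 measured, 19 were called higher (25.3%) and 8 lower (10.7%) in LiFKO on chow, with a median of 0.05. Over all genes 12.5% were called higher and 13.2% lower. On AMLN diet 10 were called higher (13.3%) and 4 lower (5.33%), with a median of 0.06. Over all genes these shares were 10.1% and 9.63%. Mrps18a led on both diets, with 0.92 (SE 0.11, limma adjusted p = 3.34e-05) on chow and 0.74 (SE 0.11, limma adjusted p = 0.000277) on AMLN diet. The difference between these lists was not tested.

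**Figure D4:**
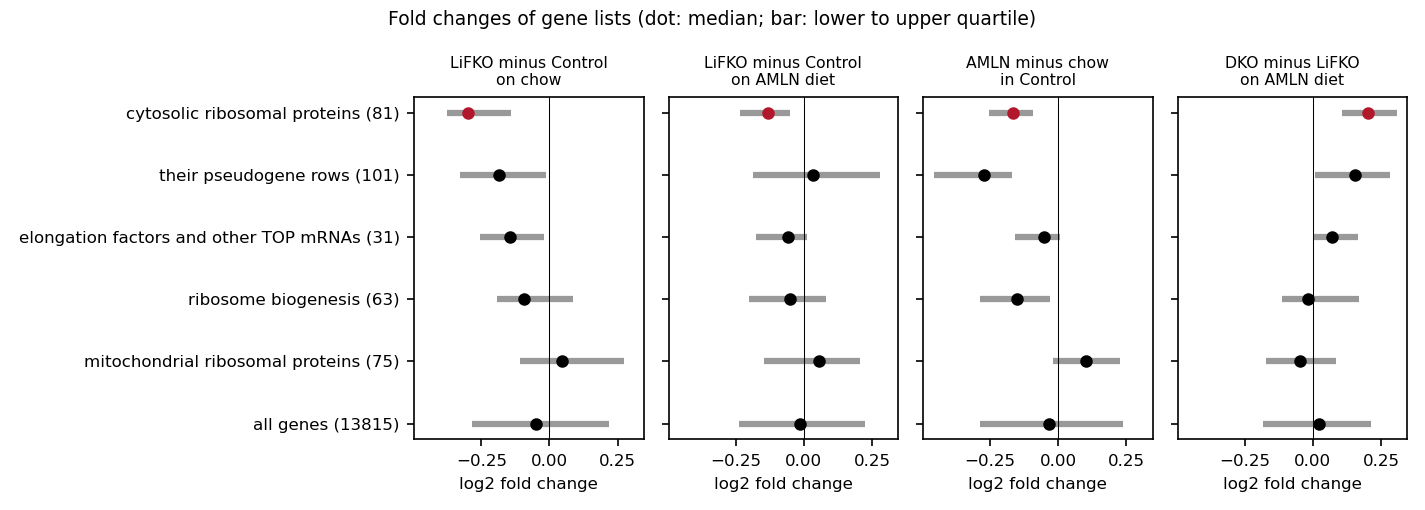
Median (dot) and lower to upper quartile (bar) of the log2 fold changes (x axis) of 5 gene lists and of all 13815 genes (y axis, number measured in brackets) in 4 comparisons. The cytosolic ribosomal proteins lie at -0.30, -0.13, -0.17 and 0.20 from left to right, while the medians of all genes stay between -0.05 and 0.02.

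Among 19 genes of translation control downstream of mTORC1, 2 were called higher and 2 lower in LiFKO on chow. That is 10.5% each, against 12.5% and 13.2% of all genes. Eif4ebp1, the translation repressor that mTORC1 inactivates, stood at 11.42, 11.09 and 10.72 in chow Control and at 11.93, 12.16 and 12.15 in chow LiFKO, with 1.00 (SE 0.14, limma adjusted p = 0.000104). It was higher in LiFKO on AMLN diet too, by 0.69 (SE 0.14, limma adjusted p = 0.00242). Mknk2, a kinase of Eif4e, was higher by 0.62 (SE 0.09, limma adjusted p = 0.000196) on chow and by 0.53 (SE 0.09, limma adjusted p = 0.000836) on AMLN diet. Larp1, the repressor of TOP mRNAs, was lower by 0.36 (SE 0.09, limma adjusted p = 0.0116) on chow, and Mycn was lower by 2.03 (SE 0.58, limma adjusted p = 0.0192). Mycn stood at 5.83, 5.69 and 3.73 in chow Control and at 3.21, 3.74 and 2.21 in chow LiFKO, so the groups overlapped. All these values lay far below the lower quartile of the chow libraries (8.01 to 8.02), where log2 values are least certain. Of 12 p53 target genes, which unbalanced ribosome assembly can induce, 2 were called higher in LiFKO on chow (16.7%, against 12.5% of all genes). They were Btg2 (1.33, SE 0.41, limma adjusted p = 0.0292) and Bax (0.47, SE 0.16, limma adjusted p = 0.0445). In LiFKO on AMLN diet 0 were called in limma, with 1 lower at an unadjusted p under 0.05. The LiFKO libraries scattered widely there, with Cdkn1a at 9.79, 11.59 and 6.94. AMLN against chow in Control liver called 8 of the 12 higher (66.7%, against 11.2% of all genes), with a median of 1.09. The cell cycle inhibitor Cdkn1a led them, with 4.29 (SE 0.92, limma adjusted p = 0.00563).

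The classes of start sequence shown above came with like values in RNA-seq, and the difference between them was not tested. On chow, 8 of the 25 members with an oligopyrimidine start were called lower in LiFKO with a median of -0.33, and 11 of the 34 without such a start with a median of -0.29. On AMLN diet 3 of 25 and 4 of 34 were called lower, with medians of -0.11 and -0.15. For DKO minus LiFKO 4 were called higher in each class, with medians of 0.19 and 0.24. Over all genes, 13.2% were called lower on chow, 9.63% lower on AMLN diet and 5.05% higher for DKO minus LiFKO. Rpl22 and Rpl7l1 were called on both diets without a pyrimidine run at their annotated starts.

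TFE3 binding near the members was read from the authors' peak lists, called on pooled ChIP-seq libraries of liver and mapped to mm9. Chow lists came from 4 Control and 4 LiFKO libraries of mice fed without a fast, and the other lists from 3 libraries per group after 9 days of FPC diet, with a virus for HA-tagged nSREBP-1c ("1c") in some groups. The FPC Control and FPC LiFKO groups received a higher dose of the GFP or Cre virus than the +1c and chow groups. Their lists therefore differ from the others in virus dose as well. ChIP libraries labelled Tfe3KO, on chow and on FPC diet, had no list of their own among those read here. On chow, 17 of 59 members with a known strand (28.8%) had a peak centre within 1000 bases of the start in Control, against 27.4% of all 9585 such genes. In LiFKO 36 members (61%) had one, against 53.6%. Counted at either end of a gene over all 81 members, the shares were 25.9% of members against 25.2% of genes in chow Control, and 63% against 48.8% in chow LiFKO. With only the peaks that scored above the median of their list, chow LiFKO gave 50.8% against 40.8%. These differences were not tested.

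On FPC diet, 3 members (5.08%) had a TFE3 peak in Control, against 18.3% of genes, and 24 (40.7%) in LiFKO, against 46%. With nSREBP-1c, 4 members (6.78%) had one in Control+1c, against 18.1%, and 29 (49.2%) in LiFKO+1c, against 58.5%. Counted at either end, LiFKO+1c gave 54.3% of members against 53.7% of genes. None had a peak of HA-nSREBP-1c, where 1.95% of genes did in Control+1c and 1.37% in LiFKO+1c. The headers of the FPC Control, Control+1c and LiFKO lists name a library called input among the targets and a TFE3 library as background, and that of the HA list of LiFKO+1c names a TFE3 library, so the roles in these 4 lists do not match their labels.

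**Figure D5:**
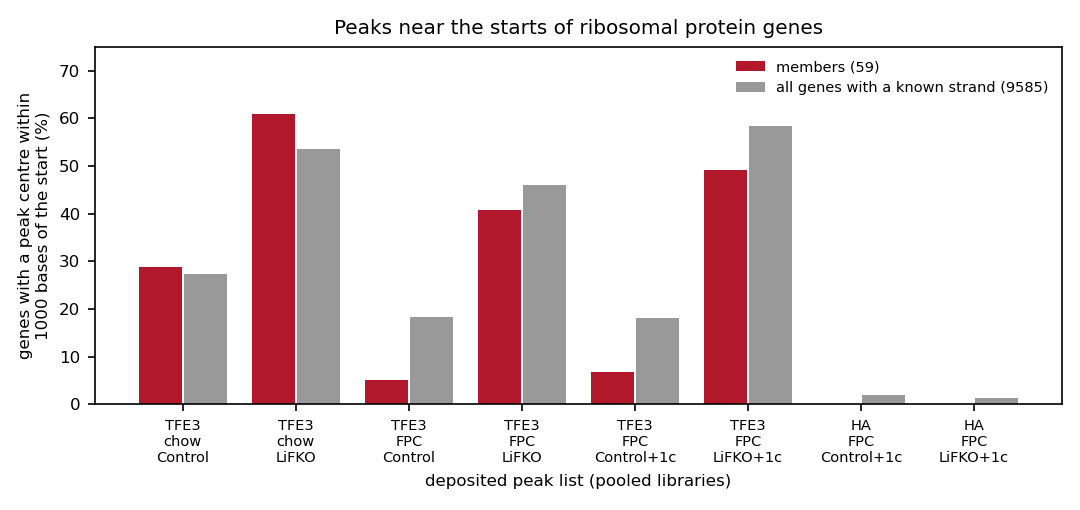
Share of genes (%, y axis from 0) with a peak centre within 1000 bases of the gene start in each of 8 deposited peak lists (x axis), for 59 ribosomal protein genes and for 9585 genes with a known strand. Members have 28.8% and 61% on chow against 27.4% and 53.6% of all genes, lie below them by this measure in the TFE3 lists of FPC diet, and are at 0 in both HA lists.

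Single members carried strong peaks. Rps28, a small protein of the small subunit, had one within 103 bases of its start in all 6 TFE3 lists, with a HOMER peak score as given by the authors above that of 95% to 98.3% of the peaks in each list. Rpl19 had scores of 31.5 in chow Control and 68.6 in chow LiFKO, above 91.9% and 98.9% of the peaks of its list, and Rplp2 had peaks in 5 of the lists. Rpl41 lay above 98.5% of the peaks in FPC LiFKO. None of these 4 was called in any RNA-seq comparison of LiFKO with Control. Of the members called on both diets, Rpl22 had a peak centred at -59 bases from its start in chow LiFKO, with a score of 25.4 (above 70.5% of the list), and Rpl35a one at -121 bases, with 35.8 (above 87.1%).

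The 4 sequences below are shown because they hold CACGTG, the core of the site that TFE3 and its relatives bind, in members that had a TFE3 peak in chow LiFKO. They come from the RefSeq promoter table of GRCm38.p6, run 5′ to 3′ along the gene, and have the motif in capitals. Rpl19 is at chr11:98026679-98026708 on the plus strand, Rpl23 at chr11:97782425-97782454 on the minus strand, Rpl34 at chr3:130730536-130730565 on the minus strand and Rps19 at chr7:24884781-24884810 on the plus strand.
Rpl19: tacccagaggacCACGTGaccaaacgccct
Rpl23: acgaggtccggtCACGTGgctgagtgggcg
Rpl34: cacctaacttctCACGTGacgttcctaccg
Rps19: tggagccgcggcCACGTGcgagcggcaggc

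CACGTG, which reads the same on both strands, was searched from 250 bases before to 50 after each annotated start. It was present at any start of 6 of 59 members (10.2%), 11.8% of measured genes and 8.09% of all genes in the table. Counted per start, it was present in 7.15% of all promoters. Of these 6 members 4 had a TFE3 peak in chow LiFKO, and of the 53 without the motif 32 did. The letters are a description, and the peaks are in mm9, so motif and peak were not placed on 1 map. In RNA-seq, 10 of the 36 members with a chow LiFKO peak were called lower in LiFKO on chow, with a median of -0.24, and 9 of the 23 without, with a median of -0.33. For DKO minus LiFKO 7 of the 36 were called higher, with a median of 0.25, and 1 of the 23, with a median of 0.18. Over all genes, 13.2% were called lower in LiFKO on chow and 5.05% higher for DKO minus LiFKO. The difference between these classes was not tested.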

How the data were processed

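RNA-seq values of 13815 genes in 15 mouse liver libraries were used as the authors deposited them, on a log2 scale. Per the submitters' processing notes, reads were handled with bcl2fastq 2.17, Trimmomatic 0.32, STAR 2.6.0c, SAMtools, featureCounts and limma on mm9. The deposited values have the same maximum in every library and nearly equal quartiles, so they had been quantile normalized. The offset is not given in the sources used here. Counts were not used here, so depth is unknown and no interval rests on it. Per the file headers, the deposited peak lists give a HOMER peak score for pooled libraries, which was compared within a list only. Per the submitters' processing notes, chow ChIP reads were processed with Bowtie2 2.2.8 and HOMER 4.11, and FPC reads with Bowtie2 2.2.6 and HOMER 4.4.

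A group-mean model over all 15 libraries (10 residual degrees of freedom) was fitted with limma 3.58.1 in R 4.3.3, with eBayes(trend=TRUE), two-sided tests and Benjamini-Hochberg adjustment over all genes within each of 7 comparisons. Genes were called under 0.05, SE is the moderated standard error, and fold changes are differences of deposited log2 values. The fit was tested on simulated data. The lists, besides those in the text, held markers of macrophages, stellate cells and fibroblasts, cholangiocytes, lymphocytes (1 of 8 measured) and neutrophils (2 of 6 measured), whose values are given in the closing section. Members and lists were chosen with earlier results of these data known. The rule named up to 6 members per direction with the smallest p among those called in a comparison, the stalk genes, Rps6, Rpsa, Rps27a and the paralog forms, and up to 4 genes of each other list by smallest p. Other members were named after their values were seen, to complete a count or as extremes.

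Gene starts used the deposited mm9 intervals with the strand of the RefSeq promoter table, matched by Entrez ID where the symbol agreed, since the table gives no strand. Summaries used Python 3.11.15 with pandas 2.3.3 and numpy 2.4.6, and plots matplotlib 3.10.9. Alternatives were other scalings, filters, variance priors, a replicate block, each library left out, and other peak distances and scores. Results of a few genes are not reported here.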

Additional observations from a re-analysis of the deposited data

How the results depend on the processing

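The member medians kept their sign under every alternative run for LiFKO minus Control on either diet, AMLN minus chow in Control, DKO minus LiFKO and the interaction. Leaving out 1 library at a time gave medians of -0.33 to -0.24 for LiFKO minus Control on chow, -0.262 to -0.0109 on AMLN diet, -0.287 to -0.0506 for AMLN minus chow in Control, -0.09 to 0.00 (0.0039) in LiFKO, 0.16 to 0.24 for DKO minus LiFKO, -0.06 to 0.16 for DKO minus Control and 0.01 to 0.23 (0.0064 to 0.2337) for the interaction. Called members then ran from 8 to 28 lower on chow, from 1 to 16 lower and 0 to 1 higher in LiFKO on AMLN diet, from 0 to 21 lower and 0 to 1 higher for AMLN minus chow in Control, from 0 to 5 higher for DKO minus LiFKO and from 0 to 1 higher for DKO minus Control. Counts over all genes are not given for these fits, so the ranges cannot be read as particular to the members. Without the mean trend of the variance (trend=FALSE), 17 were called lower on chow, 5 on AMLN diet, 0 for AMLN minus chow in Control and 3 higher for DKO minus LiFKO. With only the libraries compared in the fit, the last 3 counts were 3, 0 and 3. Recentring on the trimmed mean or on genes of like level gave 16 and 16 lower on chow and 0 and 0 for AMLN minus chow in Control. Rpl22l1 reversed on chow to -0.0574 without chow LiFKO replicate 1 (range -0.0574 to 0.23), and Rplp0 to -0.15 without chow Control replicate 2 and to -0.12 without chow LiFKO replicate 1 (range -0.15 to 0.30). The cause of these changes was not tested. With a replicate block, 22 members were called lower on chow, 7 on AMLN diet, 2 for AMLN minus chow in Control, and 8 higher for DKO minus LiFKO. The 30 pairs of same-numbered libraries had correlations of -0.185 to 0.237, and in 7 of 15 libraries the best match carried the same number, so the numbers were not taken as pairs. Peaks read at either end of a gene, chosen after seeing the data so that all members enter, were near 1 member in HA Control+1c (1.23%, against 1.85% of genes), 5 in FPC Control (6.17%, against 17.4%), 8 in FPC Control+1c (9.88%, against 17.4%) and 44 in FPC LiFKO+1c (54.3%, against 53.7%). Within 5000 bases, 1 member had a peak in HA LiFKO+1c and 5 in FPC Control.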

Other observations

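Single markers of other liver cells differed between the groups. Of 11 measured macrophage markers, Cd68, a lysosomal membrane protein, was called higher in LiFKO on chow by 2.22 in log2 (SE 0.27, limma adjusted p = 3.74e-05) and on AMLN diet by 0.98 (SE 0.27, limma adjusted p = 0.018). It was lower in DKO than in LiFKO by 1.48 (SE 0.27, limma adjusted p = 0.00256). The other 10 macrophage markers were not called on chow, and Vsig4, a complement receptor of Kupffer cells, was the only other one called in LiFKO on AMLN diet. Of 8 endothelial markers 2 were called higher in LiFKO on chow (25%, against 12.5% of all genes), with 6 below 0 and a median of -0.05. On AMLN diet 1 was called higher (12.5%, against 10.1%), with 7 above 0 and a median of 0.14. The scavenger receptor Stab2 of sinusoidal endothelium was higher in LiFKO by 1.02 (SE 0.14, limma adjusted p = 8.37e-05) on chow and by 1.45 (SE 0.14, limma adjusted p = 6.64e-06) on AMLN diet.

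Some markers of stellate cells and fibroblasts were higher on AMLN diet in Control liver. Of 9 such markers 5 were called higher (55.6%, against 11.2% of all genes) and 0 lower against chow, and 3 were below 0. The collagens led, Col1a1 with 2.31 (SE 0.44, limma adjusted p = 0.00281) and Col3a1 with 2.01 (SE 0.40, limma adjusted p = 0.00371). The summed level overlapped, at 13.54 to 14.14 in chow Control and 14.02 to 14.58 in AMLN Control. In LiFKO on AMLN diet Col1a1 was lower than in Control, with -1.53 (SE 0.44, limma adjusted p = 0.024). Among 5 measured cholangiocyte markers Spp1 was called higher on AMLN diet in Control, with 2.38 (SE 0.45, limma adjusted p = 0.00257). The 1 measured lymphocyte marker and the 2 measured neutrophil markers were not called in any of the 7 comparisons.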
